A study of Mus musculus with 10 samples.

Results

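The genes described here encode the collagens, the laminin chains, the integrin chains and the discoidin domain receptors Ddr1 and Ddr2. They were taken by mouse gene symbol from the deposited count tables. The rule gave 81 genes among 53379 counted, of which 44 were collagen genes, 11 laminin genes, 24 integrin genes and 2 discoidin domain receptor genes.

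The samples were cells of the Emx1+ lineage, sorted from neocortex of mouse embryos at embryonic day 16. The 3 cKO-Cdkn1c-MADM-7 embryos (cKO) had inherited a floxed Cdkn1c allele from each parent, and the 7 control MADM-7 embryos had not. Embryos of both groups carried the MADM reporter cassettes on chromosome 7, which Cre recombination turns into GFP or tdTomato labelling, and Emx1-Cre, which recombines in dorsal forebrain progenitors and their descendants. All labelled cells of either colour were collected together, 400 cells per library from 1 embryo, so each library is 1 embryo and unlabelled cells were not collected. GEO gives the strain as CD1, and the study describes a mixed background.

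Collagens are triple-helical proteins of the extracellular matrix. Fibrillar collagens build fibres, type IV collagen builds the sheet of the basement membrane, and laminins are trimers of one alpha, one beta and one gamma chain that lie in the same sheet. Integrins are surface receptors made of one alpha and one beta chain that bind laminin, collagen or fibronectin, while Ddr1 and Ddr2 are receptor tyrosine kinases that collagen itself activates. In the embryonic cortex, the end-feet of radial glia hold on to the basement membrane under the meninges through laminin, type IV collagen and beta1 integrin.

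Cdkn1c, the targeted cell cycle inhibitor, was read 32, 10 and 18 times in cKO 1, 2 and 3 and 116 to 369 times in the 7 controls, so the labels matched the targeted gene in every library. Reads on genes ran from 1738220 to 3362487 per library. The share of reads outside genes fell into a smaller set of values, from 5.47% to 8.64% (cKO 3 and controls 1, 2, 6 and 7), and a larger set, from 12.8% to 16.7% (the other libraries). Reads outside genes are here those that met no annotated exon, reads in introns included. Of 10 markers of the cortical lineage all 10 passed the filter. In cKO 3 were lower, among them Neurod2 and Neurod6, none was higher, and the median log2 fold change of the 10 was -0.04. Levels are given as counts per 1000000 reads on the genes that passed the filter (CPM), scaled by edgeR's TMM factors. The summed level of the 10 markers was 2356 to 2724 CPM in cKO and 3652 to 4395 in controls. Of 7 Cajal-Retzius cell markers, 6 passed the filter and all 6 were higher in cKO, with a summed level of 614 to 835 CPM in cKO and 26.5 to 217 in controls. These are early-born neurons of the cortical marginal zone, the layer just under the basement membrane. The red blood cell genes summed to 2310.4 CPM in cKO 1, 1500.5 in control 2 and 1822 in control 5, and to at most 66.1 in the other libraries. Of the cortical interneuron markers 1 of 7 tested (Dlx2) was higher in cKO and 4 had an unadjusted p under 0.05, with a median log2 fold change of 1.08 and a summed level of 45.3 to 152 CPM in cKO and 17.3 to 115 in controls. Among all genes tested by edgeR, 2.27% were called higher, 0.883% were called lower and 16.4% had an unadjusted p under 0.05. Of the oligodendrocyte precursor markers and the choroid plexus and hem markers none of the 1 and 2 tested was called by edgeR, with 1 of the latter at an unadjusted p under 0.05. The oligodendrocyte precursor markers summed to 7.88 to 28.3 CPM in cKO, 84.2 in control 1 and 0 to 14.6 in the other controls. The choroid plexus and hem markers summed to 55.5 to 152 CPM in cKO and 41.0 to 127 in controls, with a median log2 fold change of 1.26 over the 2 tested.

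Most of the 81 genes were barely read in these cells. No read fell on 7 of them in any library, which were Col6a6, Col8a2, Col10a1, Col17a1, Itgal, Itgam and Itgb6. A count of 0 in 27428324 reads on all genes allows a level of up to 0.109 per 1000000 of those reads. Another 19 genes had fewer than 10 reads over the 10 libraries together, and 18 averaged at least 10 reads per library and entered the test. All 81 genes together took 280 to 409 CPM in cKO and 229 to 317 in controls.

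Of the 18 genes tested, 1 was higher in cKO and none was lower, by edgeR's quasi-likelihood test with Benjamini-Hochberg adjustment over 11551 genes (adjusted p under 0.05). Over all genes tested, 3.15% were called, with 2.27% higher and 0.883% lower, against 5.56% of the 18. No member was lower at an unadjusted p under 0.05 with all libraries in the fit, while Itgb1 was when cKO 2 or control 3 was left out. DESeq2 called the same 1 gene. Passing the unadjusted threshold of 0.05 were 5 of the 18, or 27.8%, which was 16.4% over all genes. The median log2 fold change of the 18 was 0.38, against 0.01 over all genes, and 13 of the 18 (72.2%) were positive, against 51.3% of all genes. Only for 1 of the 18 did the 3 cKO libraries lie outside the range of the 7 controls, which held for 6.00% of all genes. The gene called, and the gene without overlap, was Ddr2. Of the 18, 3 (Ddr2, Col18a1 and Itga3) averaged under 10 reads in controls and passed the filter through their cKO reads, and 2 (Col5a2 and Lama2) averaged under 10 in cKO and passed through the controls. These counts therefore describe the 18 and support nothing further.

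Ddr2, which binds fibrillar collagen, lies on chromosome 1 (ENSMUSG00000026674, GRCm38 chr1:169972307-170110762, minus strand). Counts were 62, 46 and 25 in cKO 1 to 3, and 0, 7, 1, 1, 4, 1 and 5 in controls 1 to 7. Every cKO library was thus above every control. In CPM the cKO libraries held 20.9, 18.1 and 10.6, and the controls 0 to 2.5 with a median of 0.36. The means were 16.5 ± 5.33 (SD, n = 3) and 1.08 ± 1.07 (SD, n = 7). The log2 fold change was 4.03 (SE 0.63, 95% interval 2.74 to 5.33, edgeR adjusted p = 3.58e-05). The controls together averaged 2.71 reads, under the filter of 10, so Ddr2 entered the test through the group in which it is high. In the fit without that filter its log2 fold change was 4.00 and it was again called. Since Ddr2 was known from earlier results of these data, its p is not independent evidence.

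Since no cKO library overlapped the controls, the order of the groups for Ddr2 is the same in any subset of libraries, and the values by the share of reads outside genes are given as a description. Where that share was smaller, the single cKO library held 10.6 CPM and the 4 controls 0 to 2.5. Where it was larger, the 2 cKO libraries held 18.1 and 20.9 and the 3 controls 0.294 to 2.33. The Cajal-Retzius markers given above moved with Ddr2 between the groups. Their summed level was 690, 614 and 835 CPM in cKO 1, 2 and 3, and their part in the result was not tested. A bulk library of this kind cannot tell more cells of a type from more RNA per cell.

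The neighbours of Ddr2 did not pass the test. Hsd17b7, a gene of sterol synthesis, had a log2 fold change of -0.09 (95% interval -0.54 to 0.35), and Uap1, an enzyme of nucleotide sugar synthesis, one of -0.11 (95% interval -0.52 to 0.30). The antisense gene 3110045C21Rik overlaps the end of Ddr2, and the libraries do not mark strand. It had 0 to 5 reads in cKO and 0 to 10 in controls.

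Ddr1, the family member best known from epithelia, was far more abundant than Ddr2 in controls and did not pass the test. Its level per length was 11.6 ± 2.90 CPM per kb of exon in controls (SD, n = 7), against 0.117 ± 0.116 for Ddr2. On that scale Ddr1 ranked 2 of 81 in controls and Ddr2 ranked 31. In cKO the mean of Ddr2 was 1.79 on the same scale, which ranked 5.

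Ddr1 varied widely among the cKO embryos, with 125, 48.5 and 25.0 CPM, while the controls held 40.2 to 82.4 with a median of 54.8. One cKO library was thus above all controls and another below all of them. The log2 fold change was 0.29 (SE 0.34, 95% interval -0.42 to 0.99, edgeR adjusted p = 0.740), and -0.59 without cKO 1. Within the libraries with a smaller share of reads outside genes, the cKO library held 25.0 CPM and the controls 42.8 to 82.4. Within the others, the cKO libraries held 48.5 and 125, and the controls 40.2 to 55.1.

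**Figure D1:**
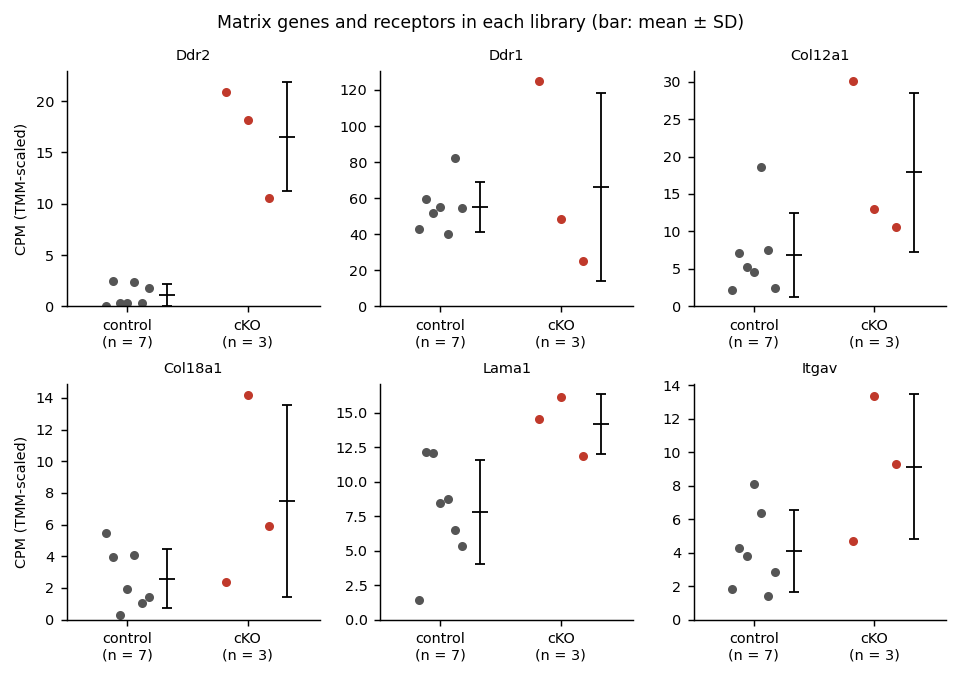
CPM, scaled by TMM factors, of Ddr2, Ddr1, Col12a1, Col18a1, Lama1 and Itgav in 7 control libraries (grey) and 3 cKO libraries (red). Each point is 1 embryo, and the bar gives the mean ± SD. For Ddr2 the cKO libraries, at 10.6 to 20.9, sit above all controls, whose highest is 2.5, whereas the groups overlap in the other 5 panels.

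Among the fibrillar collagens, 3 of 11 genes were abundant enough to test. None was called by edgeR or DESeq2, and none had an unadjusted p under 0.05. The 3 were Col11a1, Col2a1 and Col5a2. Col11a1, a chain of the thin fibrils that also hold type II collagen, had the highest level per length of the class, 1.44 ± 0.64 CPM per kb of exon in controls. In CPM it held 23.6, 17.7 and 19.5 in cKO and 5.81 to 27.9 in controls, with a median of 19.7. The groups overlapped, with a log2 fold change of 0.17 (95% interval -0.58 to 0.92).

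Col2a1, the main chain of type II collagen, held 8.09, 6.70 and 3.39 CPM in cKO and 3.63 to 15.7 in controls. Col5a2, a chain that assembles into fibrils with type I and type III collagen, held 3.71, 1.18 and 5.09 in cKO and 0.363 to 8.89 in controls. Their log2 fold changes were -0.52 (95% interval -1.53 to 0.49) and -0.59 (95% interval -1.96 to 0.78). Both intervals are wide and reach well to either side of 0. The partner chains were nearly absent. Col1a1 had 21 reads over the 10 libraries, Col1a2 had 28 and Col3a1 had 19, none of them above 8 in any library. Type I, II and III collagens are all known ligands of Ddr2, and of their chains only Col2a1 was abundant enough to test.

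Col27a1, another fibrillar chain, was below the abundance filter, with 21, 2 and 1 reads in cKO and 0 or 1 in controls. Most of its 26 reads came from cKO 1. It was looked at because it passed the threshold when the filter was dropped, and was chosen after its values were seen.

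Network collagens were sparse. Of 15 genes, only Col4a2 could be tested. It held 5.06, 7.09 and 0.424 CPM in cKO and 0.582 to 5.89 in controls, and its log2 fold change was 0.05 (95% interval -1.11 to 1.2). Col4a1, which winds together with Col4a2 into the common type IV collagen, had 2, 8 and 5 reads in cKO and 0 to 7 in controls. The X-linked Col4a5 had 2, 12 and 4 reads in cKO and 0 to 9 in controls. Among the beaded-filament chains, Col6a1 had 3 reads in all and Col6a2 had 14, with 8 of those in cKO 1. Col6a3 had 12 reads in cKO 3, 2 in cKO 2, and 5 in the controls together.

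The remaining collagens form the fibril-associated, transmembrane and multiplexin classes, in which 3 of 18 genes were tested and all 3 were positive without passing the adjusted threshold. Col12a1, which sits on the surface of collagen fibrils, had 89, 33 and 25 reads in cKO and 6 to 32 in controls with a median of 18. In CPM these were 30.0, 13.0 and 10.6 against 2.18 to 18.6. A single control, number 5, was above 2 of the 3 cKO libraries, and the other 6 controls lay below all 3. The log2 fold change was 1.58 (SE 0.47, 95% interval 0.59 to 2.56, edgeR adjusted p = 0.0767), and it was called without control 5, at 1.90 with an adjusted p of 0.0248. Without cKO 1, its highest library, the value was 0.94 with an adjusted p of 0.406. Over all alternatives the adjusted p ran from 0.00161 to 0.406.

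Col18a1 carries the endostatin fragment at its end and belongs to vascular and epithelial basement membranes. It held 2.36, 14.2 and 5.94 CPM in cKO and 0.294 to 5.44 in controls, so only cKO 2 and 3 were above the controls. Its log2 fold change was 1.56 (SE 0.59, 95% interval 0.32 to 2.81, edgeR adjusted p = 0.176). Col18a1 averaged 6.71 reads in controls, so it too entered the test through cKO, and it was not called without the filter (adjusted p = 0.0512). The library with the highest Col18a1, cKO 2, also had the highest sum of the 11 endothelial markers, 35.1 CPM. The other cKO libraries held 6.75 and 5.52, and the controls 2.90 to 12.2. The tight junction gene Cldn5 had 23 reads in cKO 2 and 0 to 3 elsewhere. The part of endothelial RNA in the Col18a1 value was not tested.

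Col9a3, a chain of the fibril-associated type IX collagen, had the highest level per length of this class, 1.84 ± 1.06 CPM per kb of exon in controls. It held 19.2, 1.97 and 5.94 CPM in cKO and 1.47 to 11.6 in controls. Of the cKO embryos, cKO 1 was thus above all controls and the others were inside their range. The log2 fold change was 0.50 (95% interval -0.71 to 1.70). Of the genes below the filter, the transmembrane Col23a1 had 6, 14 and 10 reads in cKO and 0, 1, 6, 0, 1, 0 and 4 in controls. The neuronal transmembrane collagen Col25a1 had 10, 4 and 1 reads in cKO and 0 or 1 in controls. These 2 were picked for their counts and did not enter the main test.

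When the filter was dropped, 4 of the 74 members with any read passed, all higher in cKO, against 2.64% higher among the 26537 genes then tested. They were Ddr2, Col12a1 (log2 fold change 1.54), Col23a1 (2.52, SE 0.80) and Col27a1 (4.34, SE 1.71). The last rests on cKO 1.

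**Figure D2:**
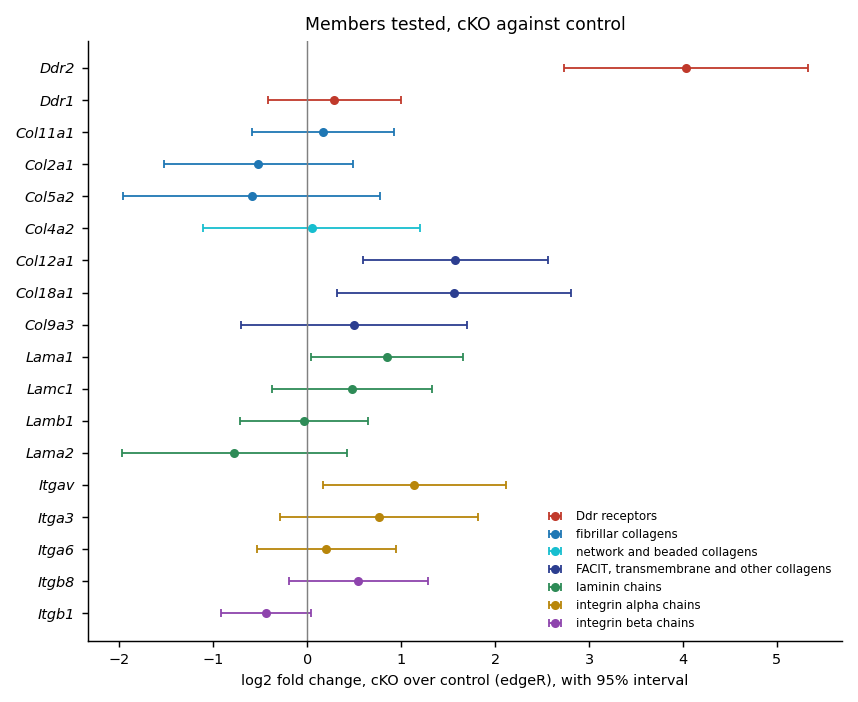
Log2 fold change of cKO over control for the 18 genes that passed the filter, coloured by class. Points are edgeR estimates and lines are 95% intervals from 3 cKO and 7 control libraries. The interval of Ddr2 begins at 2.74, while 13 of the other 17 intervals include 0.

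The laminin chains of the common trimer were all measured. Of 11 laminin genes 4 were tested, namely Lama1, Lama2, Lamb1 and Lamc1, and none passed the adjusted threshold. Lama1, the alpha chain that embryonic basement membranes use early, held 14.5, 16.2 and 11.9 CPM in cKO and 1.45 to 12.1 in controls with a median of 8.43. The lowest cKO library fell just inside the control range. The estimated log2 fold change was 0.85 (SE 0.39, 95% interval 0.03 to 1.66, edgeR adjusted p = 0.284).

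Its partner chains had smaller estimates. Lamb1, the widely used beta chain, held 8.43, 17.3 and 16.1 CPM in cKO and 8.71 to 18.5 in controls, with a log2 fold change of -0.03 (95% interval -0.71 to 0.65). Lamc1, the gamma chain of most laminins, held 8.43, 22.1 and 9.33 in cKO and 4.62 to 14.6 in controls. Its log2 fold change was 0.48 (95% interval -0.37 to 1.33) and turned to -0.11 without cKO 2, the library with the most endothelial marker reads. Whether the chains differed from each other in their response was not tested.

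Lama2, the alpha chain best known from muscle, held 2.02, 2.76 and 2.97 CPM in cKO and 1.77 to 7.11 in controls, with a log2 fold change of -0.78 (95% interval -1.97 to 0.42). Lama4, a chain of vessel walls, had 7 of its 12 reads in cKO 2. Lama5, the major alpha chain of later basement membranes, had 5, 8 and 6 reads in cKO and 0 to 14 in controls. Lamb2 had 18, 17 and 3 reads in cKO and 1 to 17 in controls. The chains Lama3, Lamb3 and Lamc3 had 11, 2 and 4 reads in all. All 4 reads of Lamc3 came from cKO 3.

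Itgb1, the beta chain shared by most laminin and collagen receptors, had the highest level per length of all 81 genes in controls, 17.5 ± 2.09 CPM per kb of exon. It held 30.4, 75.2 and 53.9 CPM in cKO and 55.0 to 83.4 in controls. Thus 2 of 3 cKO libraries were below all controls and the third was inside their range. edgeR's log2 fold change was -0.44 (SE 0.23, 95% interval -0.92 to 0.04, edgeR adjusted p = 0.364). Single cKO libraries set its size, which was -0.79 without cKO 2 (adjusted p = 0.0768) and -0.14 without cKO 1 (adjusted p = 0.792).

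Of 16 integrin alpha genes, Itga6, Itga3 and Itgav were tested, and none passed the adjusted threshold. Itga6, the laminin-binding chain found on neural progenitors, had the highest level per length among them, 1.93 ± 0.72 CPM per kb of exon in controls. It held 11.8, 30.3 and 19.1 CPM in cKO and 9.60 to 28.9 in controls, and its log2 fold change was 0.20 (95% interval -0.54 to 0.94). The other laminin-binding chain, Itga3, was close to even among cKO embryos, at 6.07, 5.91 and 5.09 CPM, inside a control range of 0.711 to 8.35. Its log2 fold change was 0.76 (95% interval -0.29 to 1.81).

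Itgav, the alpha chain of receptors for vitronectin and latent TGF-beta, held 4.72, 13.4 and 9.33 CPM in cKO and 1.44 to 8.11 in controls, so 2 of 3 cKO libraries were above all controls. The fitted log2 fold change was 1.14 (SE 0.46, 95% interval 0.16 to 2.12, edgeR adjusted p = 0.222). Its partner Itgb8, which cortical progenitors use to activate TGF-beta, held 11.8, 13.8 and 8.49 in cKO and 3.96 to 10.9 in controls. The estimated log2 fold change of Itgb8 was 0.54 (95% interval -0.19 to 1.28). Itgb5, another partner of Itgav, had 1, 10 and 14 reads in cKO and 0 to 21 in controls and was below the filter.

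The alpha chains that make collagen receptors with Itgb1 had few reads in both groups. Itga1 had 0, 11 and 3 reads in cKO and 0 to 9 in controls, Itga2 had 3, 5 and 0 against 0 to 4, and Itga10 had 3, 4 and 2 against 0 to 6. Itga11 had 2 reads, both in control 2. Beside these 4 chains, Ddr1 had the highest level per length in either group, and Ddr2 came next in cKO.

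Itga4, a receptor chain for fibronectin and Vcam1, had 5, 13 and 18 reads in cKO and 1 to 10 in controls. Itga5, the main fibronectin receptor chain, had 1, 9 and 2 reads against 2 to 6. Chains typical of leukocytes were at or near 0. Itgal and Itgam had no read, Itgax had 2 reads, Itgb7 had 4, and Itgb2 had 4, all in cKO 2. The 11 markers of microglia and macrophages summed to 10.1, 7.88 and 58.6 CPM in the cKO libraries and to 2.14 to 7.55 in controls, none of them abundant enough to test.

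Of 10 pericyte and smooth muscle markers, 4 had no read in any library and the others summed to 5.06 to 8.91 CPM in cKO and 3.63 to 7.57 in controls. The 10 meningeal fibroblast markers summed to 26.0 to 46.9 in cKO and 15.1 to 34.6 in controls, with 2 tested and none called by edgeR. One of them, Dcn, a small proteoglycan, had an unadjusted p under 0.05, at 28.1 ± 7.16 CPM in cKO and 14.4 ± 6.49 in controls (SD, n = 3 and 7). The other, Ptgds, a prostaglandin synthase, stood at 4.72 ± 2.19 and 5.56 ± 2.29 CPM, and the median log2 fold change of both was 0.33. The main fibroblast collagens, Col1a1 and Col1a2, are at the counts given above.

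**Figure D3:**
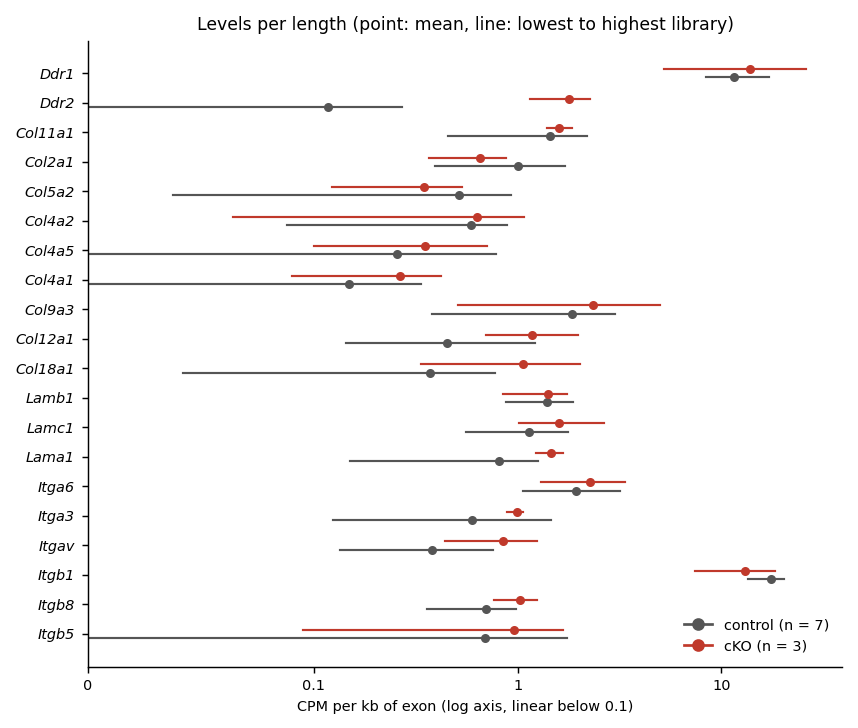
CPM per kb of exon for 20 members, on an axis that is logarithmic above 0.1 and linear below. Points are group means, and lines run from the lowest to the highest library of 7 controls (grey) and 3 cKO embryos (red). The means of Itgb1 and Ddr1 lie above 10 in both groups, though single libraries do not all do so, and the mean of Ddr2 moves from 0.117 in controls to 1.79 in cKO.

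The genes that work with these proteins were read from 5 lists with 170 matched genes, of which 107 passed the filter. In cKO 4 were higher and none was lower, a share of 3.74% beside the 3.15% of all genes. The median log2 fold change of the 107 was 0.00. The basement membrane and matrix partners gave 2 of 17 (Reln and Vcan), the collagen folding and cross-linking genes 1 of 22 (Serpinh1) and the matrix proteases and inhibitors 1 of 19 (Serpine2). None of 30 genes for integrin adhesion and signalling and none of 19 for other matrix receptors passed, and 4 and 2 of them had an unadjusted p under 0.05, where the share of all genes was 16.4%. Of all 107, 7 (6.54%) were lower at an unadjusted p under 0.05, beside 7.11% of all genes. DESeq2 called 4 of them lower (3.74%, beside 1.82% of all genes), which were Ptk2, Gpc4, Sec23a and Mmp11.

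Serpinh1 is the collagen chaperone of the endoplasmic reticulum, known as Hsp47, and lies on chromosome 7, which also carries Cdkn1c and the MADM cassettes. It held 86.7, 18.9 and 23.8 CPM in cKO and 4.35 to 12.8 in controls, so the groups did not overlap. edgeR's log2 fold change was 2.27 (SE 0.44, edgeR adjusted p = 0.00516). Without cKO 1 it was 1.2 with an adjusted p of 0.0750. The collagen-modifying enzymes around it gave no call, and the median over the 22 genes of its list was -0.07.

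Serpine2, a secreted protease inhibitor also known as protease nexin, held 37.4, 27.6 and 62.8 CPM in cKO and 4.71 to 11.1 in controls, again without overlap. Its log2 fold change was 2.65 (SE 0.34, edgeR adjusted p = 0.000117).

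Reln, the secreted matrix glycoprotein of Cajal-Retzius cells, is both on the matrix list and among the Cajal-Retzius markers. It held 246, 364 and 280 CPM in cKO and 2.88 to 78.8 in controls, with a log2 fold change of 2.71 (SE 0.44, edgeR adjusted p = 0.000949). The sums of the Cajal-Retzius and the cortical lineage markers also separated the groups, and their part in these calls was not tested.

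Vcan, a large chondroitin sulfate proteoglycan, held 129, 123 and 78.5 CPM in cKO and 50.4 to 78.6 in controls. Its lowest cKO library met the top of the control range, so the groups overlapped. The fitted log2 fold change was 0.76 (SE 0.19, edgeR adjusted p = 0.0333), and the adjusted p was above 0.05 in 9 of 16 alternatives, 7 of which left out 1 library.

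In the lists without a call, the genes with the smallest p were named. Ptk2, the focal adhesion kinase, held 41.8, 70.1 and 50.9 CPM in cKO and 64.2 to 108 in controls, a log2 fold change of -0.70 (edgeR adjusted p = 0.0812). Tns3, a focal adhesion adaptor, held 7.76, 13.0 and 3.39 in cKO and 0.714 to 4.86 in controls, a log2 fold change of 1.58 (edgeR adjusted p = 0.0837). Tns3 averaged under 10 reads in controls, so it too entered the test through the group in which it is high. Gpc4, a cell surface heparan sulfate proteoglycan, held 23.3, 33.5 and 27.6 in cKO and 40.9 to 68.6 in controls. Its groups did not overlap, and its log2 fold change was -0.82 (edgeR adjusted p = 0.0666). Rpsa, a ribosomal protein also described as a laminin receptor, held 567 to 747 in cKO and 366 to 726 in controls (log2 fold change 0.38, edgeR adjusted p = 0.292).

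**Figure D4:**
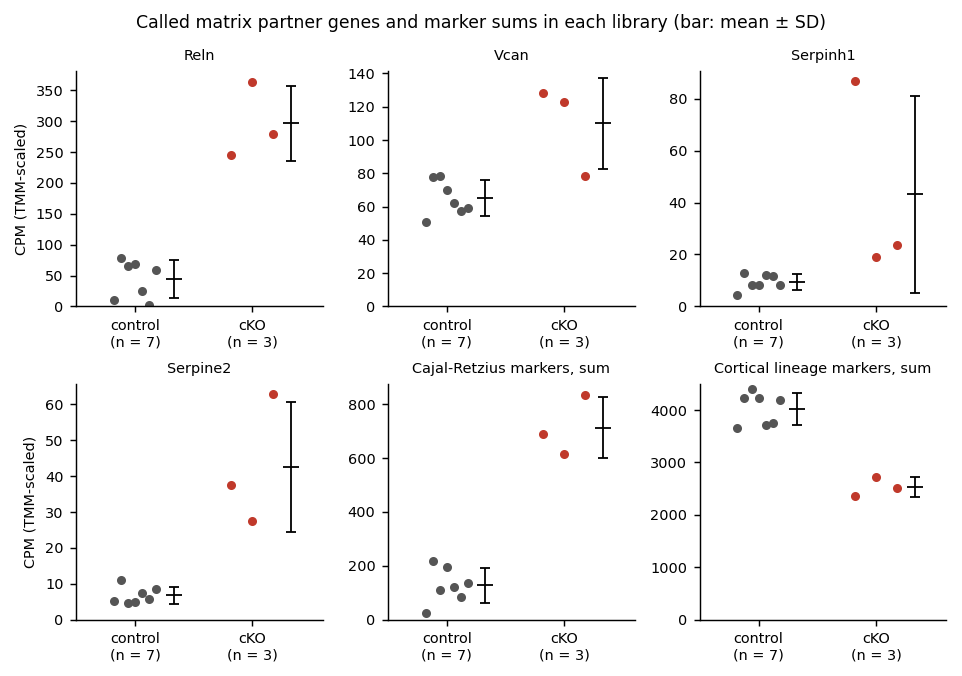
CPM, scaled by TMM factors, of the 4 partner genes called higher in cKO, beside the sums of 7 Cajal-Retzius markers and 10 cortical lineage markers. Points are embryos (7 controls in grey, 3 cKO in red) and bars give the mean ± SD. Reln, Serpinh1 and Serpine2 do not overlap between the groups, and the marker sums are 614 to 835 against 26.5 to 217 and 2356 to 2724 against 3652 to 4395.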

How the data were processed

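RNA-seq of 10 libraries of 400 sorted cells each was analysed. The authors prepared the libraries by Smart-Seq2, merged technical replicates, aligned reads to GRCm38 with STAR 2.5.0c keeping single alignments, and deposited raw read counts per GENCODE M16 gene, unstranded and by strand. Counts are reads, not molecules, so floors cover counting error only. Reads that overlap several genes are not in the unstranded counts.

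Symbols came from GENCODE M21, in which 105 of 53379 genes did not match. The unstranded counts were used, and genes averaging at least 10 reads were tested with edgeR 4.0.16 (TMM factors, quasi-likelihood test, genotype alone) in R 4.3.3, with Benjamini-Hochberg adjustment at 0.05. The test was first checked on simulated data. Intervals are at 95%. CPM values use TMM factors, and levels per length divide by all annotated exon bases. Genotypes came from the labels, which do not pair the embryos.

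The members and the lists of partner and marker genes were chosen with earlier results of these data known. Named are Ddr1, Ddr2, members under an unadjusted p of 0.05, the 3 most abundant per length in each class, chain partners, called list genes or else the 2 with the smallest p, and Cdkn1c. Other members are described by their read counts alone, without a test, or were named after their values were seen. Alternatives were DESeq2 1.42.0, its size factors, no filter, strand-specific counts, a replicate block, a covariate for reads outside genes, and each library left out. The 2 sets of libraries with smaller and larger shares of such reads were formed after seeing the data. One listed symbol, Ctage5, was not matched.

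Some genes that were counted and tested are not reported here by name.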

Additional observations from a re-analysis of the deposited data

Results flagged for a closer look

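The 29 genes chosen by the naming rule were checked for a control library far from the other 6, and 2 had one, both times control 5. Members described by their counts alone were not checked. This check flags about 1 group in 20 by chance. Col12a1 stood at 18.6 CPM in control 5, with the other controls from 2.18 to 7.55. Col4a5 stood at 5.24 CPM in control 5, which is 9 reads, with the others from 0 to 2.14. Control 5 had the fewest reads on genes, 1738220.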

How the results depend on the processing

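Ddr2 was called higher under all 16 alternatives, with a log2 fold change of 3.77 to 4.44. Cdkn1c was called lower under all 16, at -4.07 to -3.37, and no member was called lower under any. The members called higher numbered 1, but 4 with no filter and 1 to 2 when a library was left out, the second being Col12a1 without control 5. The partner genes called higher numbered 4, 11 with no filter and 3 to 5 with a library left out. The 11 are among at most 170 matched genes, and 2.64% of all genes were called higher without the filter. Those called lower numbered 0, but 4 with DESeq2, 3 with no filter, and 0 to 2 with a library left out (2 without cKO 2, 1 without control 6). Small fold changes of uncalled genes turned sign. Col4a2 was -0.051 with the replicate block and -0.10 with the covariate, and Lamb1 was 0.011 with DESeq2. With a library left out, Col4a2 ran from -0.48 to 0.52, Col9a3 from -0.79 to 0.95, Ddr1 from -0.59 to 0.66, Itga6 from -0.22 to 0.50, Lamb1 from -0.24 to 0.25 and Lamc1 from -0.11 to 0.75. The lowest came without cKO 1 for Col9a3 and Ddr1 and without cKO 2 for the others. The cause was not tested.

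The labels do not say that library numbers pair embryos. Deviations of same-numbered libraries correlated at 0.04, -0.10 and -0.21, and those of differently numbered ones at -0.27 to 0.25. These values cannot decide whether any embryos were paired. With the replicate block Ddr2 was 4.11, Cdkn1c -3.59, 1 member was higher and 0 lower, and of the partner genes 3 were higher and 0 lower. Controls 4, 5, 6 and 7 share no number with a cKO library, so they do not inform the genotype estimate in that fit. The call lost there was Vcan, at 0.67. Of the 81 members, 63 had too few reads to be tested, of which 37 were collagens, 19 integrins and 7 laminins.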
